A study of Homo sapiens with 40 samples.

Results

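The DEAD and DEAH box helicases are a family of RNA helicases whose gene symbols begin with DDX or DHX. The members described here were all gene symbols of the form DDX or DHX followed by a number, DDX6 left out because it was itself an immunoprecipitated protein, with a mean of at least 1 CPM (counts-per-million, a gene's share of its library's total reads in parts-per-million) in the 4 control siRNA input libraries of the gradient experiment. This gave 49 members of the 55765 gene symbols counted, 34 named DDX and 15 named DHX, and 7 further family symbols lay under the limit. Just inside it were DDX47 at 1.36 CPM and DDX60 at 2.03 CPM, and just outside it DDX25 at 0.259 CPM, DHX58 at 0.228 CPM and DDX60L, the neighbour and paralogue of DDX60, at 0.196 CPM. The rule used plain shares of each library's total. All other CPM values given here are scaled within each experiment by TMM normalisation factors, so that DDX47 has 1.45 CPM in the same control input libraries on that scale. All 49 members passed the filter on low counts in every fit.

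The helicases among these members share a core that uses ATP to bind RNA and to open short duplexes or displace proteins from it. Most members in a dividing cell serve the nuclear life of RNA, in ribosome assembly, splicing and mRNA export, and a smaller number act on mRNA in the cytoplasm during translation. The translation initiation factors eIF4A1 and eIF4A2 and the repressor DDX6 belong to the same family, so the libraries show how the mRNAs of helicases were themselves distributed among helicase-bound RNA and ribosomes.

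All 40 libraries came from HEK293 cells, an established human embryonic kidney line, and fell into 12 groups. In the RNA immunoprecipitation experiment, RNA recovered with eIF4A1, eIF4A2 or DDX6 (3 libraries each) was compared with total RNA (3 libraries) of the same kind of cells. The sucrose gradient experiment used cells given control siRNA or CNOT1 siRNA, CNOT1 being the scaffold of the Ccr4-Not complex, and sequenced the unfractionated cytoplasmic input, the pooled subpolysomal fractions and the pooled polysomal fractions with 4 libraries per group. The last experiment compared control siRNA with siRNAs against TNRC6A and TNRC6B together, the microRNA effectors, with 2 libraries each. The siRNA groups are transient transfections of 1 cell line, and no IgG library was used here, so RNA recovered by beads alone was not measured.

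Library totals ranged from 15.4 to 46 M (mega) reads. Of the markers checked, KRT18, VIM and NEFM were detected in every group, KRT8 was low at 2.65 to 11.7 CPM, and the kidney marker PAX2 held 0.0983 to 1.57 CPM, in the input libraries no more than 0.31 CPM. PTPRC, CD79A and ALB stayed at or below 0.484 CPM. The endothelial marker PECAM1 was also on the list of markers expected absent, and its values are not given here. CNOT1 fell by 4.07 on the log2 scale in the CNOT1 siRNA input libraries (edgeR quasi-likelihood test, adjusted p = 2.49e-16). In the polysomal libraries of replicate 3, CNOT1 went against the labels. The library labelled control siRNA held 28.3 CPM while its group's other libraries held 470 to 500 CPM, and the library labelled CNOT1 siRNA held 631 CPM while the others of its group held 24 to 31.6 CPM. Both were kept in the fits as labelled, and the counts from polysomal libraries are also given without them. TNRC6A and TNRC6B had log2 differences of -1.80 and -1.68 in the knockdown libraries, neither of which passed the adjusted test.

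Per kilobase of transcript, the most abundant member mRNAs in the control siRNA input were DDX3X, an initiation factor for structured mRNAs, at 293 ± 16.4 CPM per kb (SD, n = 4), and DDX21, which acts in ribosomal RNA synthesis, at 284 ± 17.8 CPM per kb. These neighbours did not differ beyond their spread. DDX5, a transcriptional coregulator, followed at 240 CPM per kb, then DHX9 at 204 CPM per kb and DHX15 at 188 CPM per kb. At the low end stood the innate RNA sensor DDX58 (today RIGI) at 1.25 CPM per kb, DDX47 at 0.801 CPM per kb and DDX60 at 0.363 CPM per kb. Together the members held 0.936 to 0.997% of the counts in total RNA, 0.557 to 0.668% in the eIF4A1 immunoprecipitates, 0.701 to 0.863% in the eIF4A2 immunoprecipitates and 0.536 to 0.672% in the DDX6 immunoprecipitates. Each immunoprecipitate thus held a smaller summed share than any total RNA library. In bulk RNA, fewer cells carrying an mRNA and less of it per cell cannot be told apart.

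The study reported purine-rich tetramers enriched in the 5′ UTR of mRNAs bound only by eIF4A2, especially just before the start codon. These tetramers were looked for in the members. The sequences are those of members on which the comparisons turn. They give the 30 nucleotides before the start codon of the annotated transcript, 5′ to 3′ on the transcript's strand, from the GRCh37 genome. Capitals mark matches to the 8 purine tetramers AAGA or AGAA or GAAA or GAGA or AGAG or GGAA or AAAA or GAAG, searched on the transcript strand only. Matches were taken from left to right without overlap, so a tetramer that overlaps an earlier match is not marked or counted.
DDX1, chr2:15732028-15732057, plus strand: gcaggcGAAGccgcggaggacggggtGAAG
DDX3X, chrX:41193476-41193505, plus strand: AAGActccgagttctcggtactcttcaggg
DDX21, chr10:70715952-70715981, plus strand: accggtcggcctgggcaacctgcgctGAAG
DDX55, chr12:124086666-124086695, plus strand: gcggcgaccgacgcggcGAAGgagcgcgcc
DDX5, chr17:62502238-62502267, minus strand: cgttccccgccaaccgcaaccattgacgcc
DDX39B, chr6:31508310-31508339, minus strand: cccttcccttcttcccctgccggcccagtt
DHX33, chr17:5372180-5372209, minus strand: ttgcgcctcccgccgcggtgccctcccgac
DDX1, DDX3X and DDX21 each held a tetramer directly beside the start codon or at the window's far end, DDX55 held a tetramer inside the window, and DDX5, DDX39B and DHX33 held none. Among the 38 members with a window of this length, 19 (50%) held at least 1 tetramer, and 8114 of 16973 coding genes (47.8%) did. The window is shorter than the one the study used at the end of the 5′ UTR. Members with a 5′ UTR under 30 nucleotides have no window, so these shares cannot be set against the study's enrichment. Members had a longer coding sequence than the genes tested, with a median of 2316 against 1428 nucleotides, and a shorter 5′ UTR, with a median of 87 against 146 nucleotides. Tetramer density in the 5′ UTR, per 100 nucleotides, had a median of 2 among members and 1.65 among all genes.

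Most helicase mRNAs were under-represented in all 3 immunoprecipitates, which share the same total RNA libraries. Against total RNA, 35 of 49 members were lower in the eIF4A1 immunoprecipitates and 1 was higher, with 26.5% and 26.1% of the 17474 genes tested called in these directions. In the eIF4A2 immunoprecipitates 31 members were lower and 3 higher (25.8% and 24.5% of all genes), and in the DDX6 immunoprecipitates 35 were lower and 1 higher (23.3% and 22.7%). The members' median log2 differences were -0.93, -0.64 and -0.73, with medians over all genes of 0.04, 0.01 and 0.01. With the replicate number as a block, which pairs these libraries, the eIF4A2 counts became 35 lower and 5 higher (31.9% and 30.4% of all genes), DHX35 and DDX26B being the additional higher members.

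**Figure D1:**
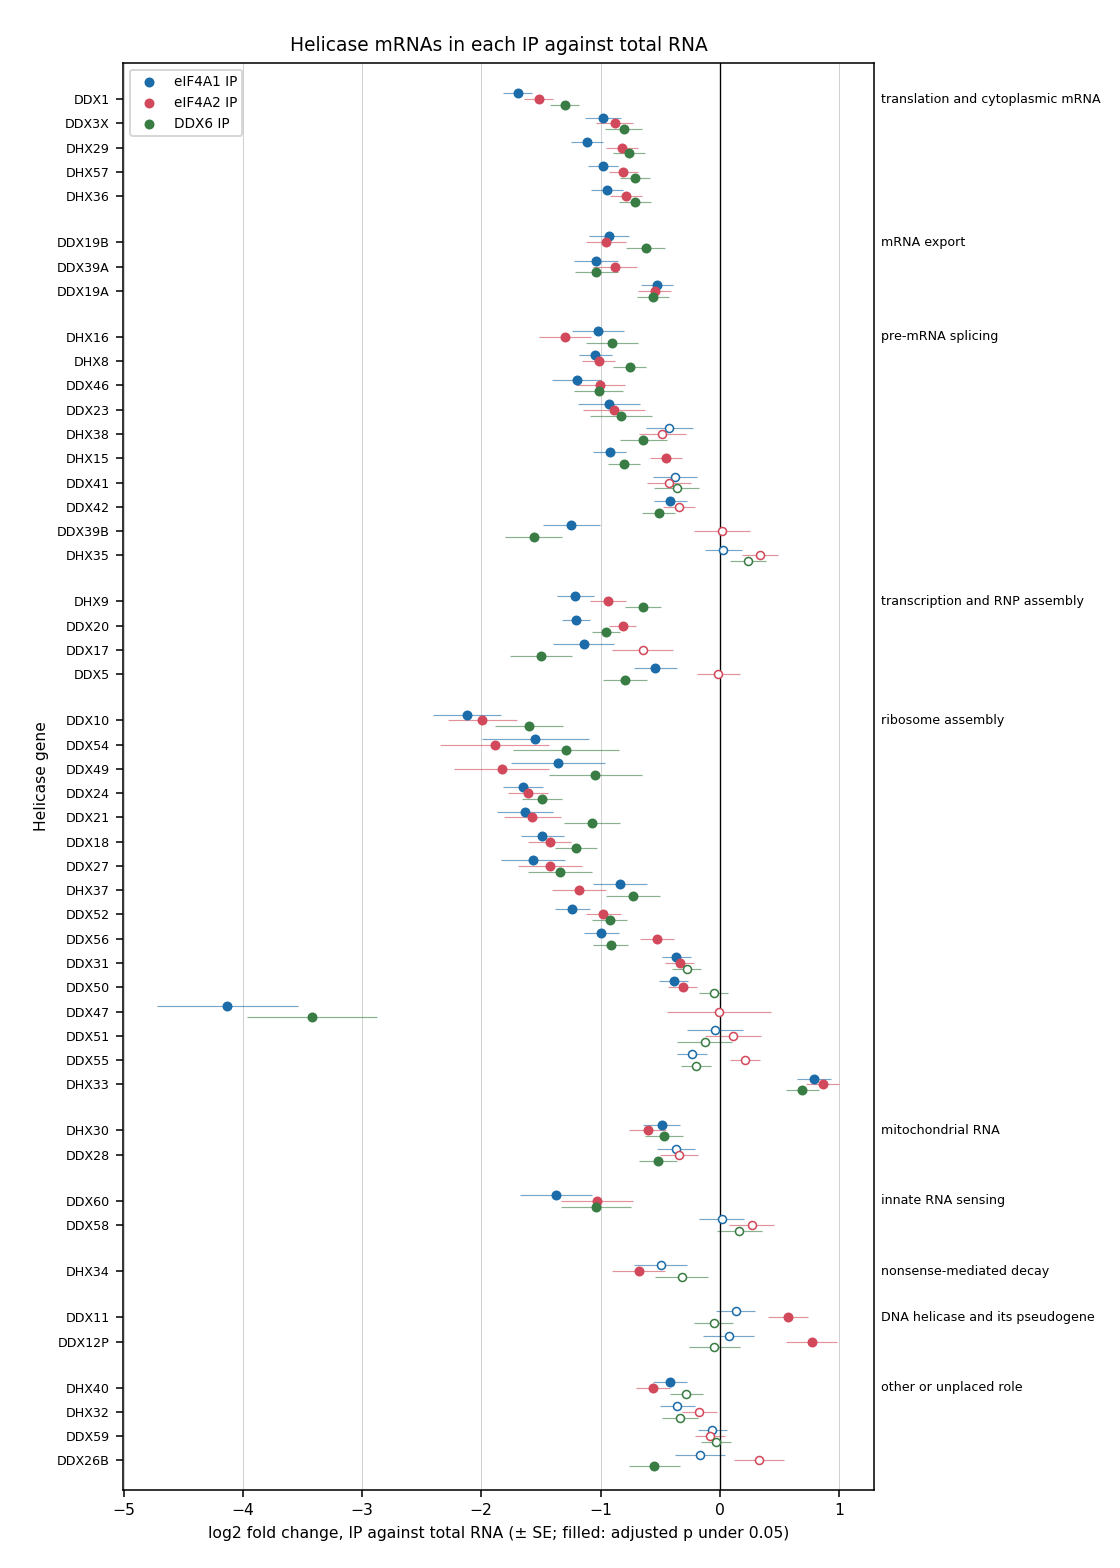
Log2 difference from total RNA (x axis) of each of the 49 members in the eIF4A1, eIF4A2 and DDX6 immunoprecipitates, ordered by role. Points are fitted values, bars are standard errors and filled points passed an adjusted p of 0.05; most members lie left of 0, the 3 points of DHX33 lie right of 0, and the eIF4A2 points of DDX39B, DDX5 and DDX47 lie at 0 while their other points lie left of it.

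The 5 members placed in the role list of translation and cytoplasmic mRNA, DDX1, DDX3X, DHX29, DHX36 and DHX57, were lower in each of the 3 immunoprecipitates. DDX1, best known from the tRNA ligase complex (chr2:15731302-15774470, plus strand), held 263, 286 and 260 CPM in total RNA. It held 77.1, 79.5 and 93.1 CPM with eIF4A1, 96.6, 88.1 and 97.8 CPM with eIF4A2, and 112, 106 and 110 CPM with DDX6. Every immunoprecipitate lay below every total RNA library. Its log2 differences were -1.70 ± 0.12 (SE, adjusted p = 1.17e-06), -1.52 ± 0.12 (adjusted p = 1.13e-06) and -1.30 ± 0.12 (adjusted p = 1.26e-05). DDX3X (chrX:41192601-41223725, plus strand) held 913, 1076 and 915 CPM in total RNA and 433 to 594 CPM across the 9 immunoprecipitates, again without overlap. Its log2 differences were -0.98 ± 0.15, -0.88 ± 0.15 and -0.81 ± 0.15.

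DHX29, which helps the ribosome scan structured leaders, held 57.4, 62.6 and 59.9 CPM in total RNA, and 24, 26 and 33.2 CPM with eIF4A1. With eIF4A2 it held 34.7, 35 and 32.2 CPM, and with DDX6 37.8, 32.7 and 35.9 CPM. DHX36, which unwinds G-quadruplexes, held 166, 186 and 177 CPM in total RNA and 81.5 to 115 CPM in the immunoprecipitates. Both genes were separated from total RNA in every library, with log2 differences of -1.11, -0.82 and -0.76 for DHX29 and of -0.95, -0.78 and -0.71 for DHX36.

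The 16 ribosome assembly members gave both the deepest depletion and the gain seen with all 3 proteins. Of these, 13 were lower and 1 higher with eIF4A1, 12 lower and 1 higher with eIF4A2, and 11 lower and 1 higher with DDX6. DDX10, a factor of the small ribosomal subunit (chr11:108535785-108811726, plus strand), held 86.5, 96.5 and 79.2 CPM in total RNA, against 13.2, 22.2 and 25 CPM with eIF4A1, 29.3, 23.7 and 13 CPM with eIF4A2 and 34.8, 22.9 and 28.7 CPM with DDX6. It differed by -2.12 ± 0.29 (adjusted p = 5.52e-05), -1.99 ± 0.29 (adjusted p = 8.36e-05) and -1.60 ± 0.28 (adjusted p = 0.000571). DDX54, a nucleolar helicase, held 216, 241 and 126 CPM in total RNA and 68.5, 69.5 and 19.4 CPM with eIF4A2 (log2 difference -1.89 ± 0.45, adjusted p = 0.00357). The replicate 3 library was the lowest of both DDX54 groups.

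DHX33, a helicase of ribosomal RNA synthesis and ribosome joining (chr17:5344237-5372302, minus strand), was the member that rose in all 3. It held 183, 192 and 170 CPM in total RNA, and 357, 275 and 311 CPM with eIF4A1, 309, 319 and 363 CPM with eIF4A2 and 317, 263 and 301 CPM with DDX6. Every immunoprecipitate lay above every total RNA library. The log2 differences were 0.79 ± 0.14 (adjusted p = 0.000427), 0.86 ± 0.14 (adjusted p = 0.000225) and 0.69 ± 0.14 (adjusted p = 0.00147).

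DDX21 (chr10:70715891-70744824, plus strand) and its paralogue DDX50 parted in these libraries. DDX21 held 958, 1130 and 960 CPM in total RNA and 231, 309 and 443 CPM with eIF4A1, and it fell by 1.63, 1.57 and 1.07 on the log2 scale with eIF4A1, eIF4A2 and DDX6. DDX50 held 114, 118 and 110 CPM in total RNA and 75.8, 92.8 and 93 CPM with eIF4A1, with log2 differences of -0.39, -0.31 and -0.05, the last of which did not pass the test. The difference between the paralogues was not itself tested.

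Of the 10 splicing members, 7 were lower with eIF4A1, 5 with eIF4A2 and 8 with DDX6, and none was higher. Blocking on the replicate number gave 8 lower with eIF4A2 and DHX35 higher (0.33, adjusted p = 0.0485). The 3 export members DDX19A, DDX19B and DDX39A were lower in each. DDX39B, counted with splicing although it couples splicing to export, held a mean of 298 CPM with eIF4A2 and 295 CPM in total RNA. The means of DDX39B were 124 CPM with eIF4A1 and 100 CPM with DDX6. DDX19A differed by -0.52, -0.55 and -0.56 and its paralogue DDX19B by -0.93, -0.95 and -0.62. The 4 members of transcription and RNP assembly (DDX5, DDX17, DDX20 and DHX9) were lower with eIF4A1 and with DDX6, whereas DDX20 and DHX9 passed with eIF4A2, and DDX17 passed there with the replicate block (-0.67, adjusted p = 0.00305). The eIF4A1 call of DDX5 (-0.54, adjusted p = 0.0235) was lost without total RNA replicate 3 or eIF4A1 replicate 2 (adjusted p = 0.0609 and 0.0807). DHX9, which resolves RNA and RNA-DNA duplexes in the nucleus, held 729, 805 and 678 CPM in total RNA and 293, 301 and 362 CPM with eIF4A1. With eIF4A2 it held 330, 377 and 449 CPM, and with DDX6 464, 463 and 486 CPM. It was lower in all 3, by -1.21, -0.94 and -0.65 on the log2 scale.

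The remaining groups were small. DHX30, a mitochondrial ribosome factor, held 316, 342 and 224 CPM in total RNA and 188 to 233 CPM across the immunoprecipitates. Its lowest total RNA library lay above all 3 eIF4A2 libraries and overlapped the libraries of the other proteins. It was called lower in each (-0.49, -0.60 and -0.47), although the eIF4A1 and DDX6 calls were lost without replicate 1 or 2 of total RNA or replicate 2 or 3 of the immunoprecipitate (adjusted p = 0.0511 to 0.123). DDX28, also mitochondrial, was lower with DDX6 (-0.52, adjusted p = 0.0178). The antiviral DDX60 was lower in each at 2.64 to 3.7 CPM in total RNA, and DDX58 had log2 values of 0.02, 0.27 and 0.17 that did not pass. DDX11, a DNA helicase of chromatid cohesion, and its pseudogene DDX12P were higher with eIF4A2 and did not pass with the other proteins, at 0.57 ± 0.16 (adjusted p = 0.0106) and 0.77 ± 0.21 (adjusted p = 0.0082). These genes are near-identical copies, so that the assignment of reads between them is uncertain.

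The direct comparison of the immunoprecipitates showed which members' RNA was recovered more with eIF4A2. Members were taken by symbol alone, so they include the pseudogene DDX12P and INTS6L under its older symbol DDX26B. Against DDX6, 8 members were higher with eIF4A2 and 0 lower (9.82% and 11.3% of all genes tested), namely DDX47, DDX39B, DDX26B, DDX17, DDX12P, DDX5, DDX11 and DDX55. At an unadjusted p under 0.05, 1 member was lower, and DESeq2 called 0 lower. The count rested partly on single libraries. It was 2 (DDX39B and DDX47) without DDX6 replicate 2 (4.17% of all genes), 4 without DDX6 replicate 3 (6.36%) or eIF4A2 replicate 3 (6.79%), and 5 without eIF4A2 replicate 1 (5.2%). With the replicate block it became 10 higher and 7 lower (18.5% and 22% of all genes), the lower members being DDX19B, DDX49, DDX50, DDX54, DHX16, DHX34 and DHX37.

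DDX39B, a helicase that couples splicing to export (chr6:31497996-31510225, minus strand), gave the largest difference among members above 10 CPM. It held 273, 264 and 348 CPM in total RNA, 163, 103 and 107 CPM with eIF4A1, 269, 214 and 412 CPM with eIF4A2, and 109, 90.8 and 101 CPM with DDX6. The eIF4A2 libraries overlapped total RNA and lay above every library of the other 2 proteins. DDX39B was 1.58 ± 0.24 higher on the log2 scale with eIF4A2 than with DDX6 (adjusted p = 0.00225) and 1.26 ± 0.24 higher than with eIF4A1 (adjusted p = 0.0238). A same-strand readthrough gene, ATP6V1G2-DDX39B, and the small nucleolar RNA gene SNORD84 together overlap 30.8% of its exonic bases in the annotation used here. Its paralogue DDX39A held 96.8, 109 and 116 CPM with eIF4A2 and 99.7, 109 and 81.1 CPM with DDX6 (0.16 ± 0.18, adjusted p = 0.563), and the difference between the paralogues was not tested.

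DDX5 and DDX17, paralogous coregulators of transcription and splicing, gave log2 values of 0.78 ± 0.18 (adjusted p = 0.0111) and 0.85 ± 0.26 (adjusted p = 0.033) between eIF4A2 and DDX6. DDX5 (chr17:62494372-62504317, minus strand) held 983, 1003 and 1079 CPM in total RNA, 763, 589 and 756 CPM with eIF4A1, 913, 828 and 1297 CPM with eIF4A2 and 612, 527 and 626 CPM with DDX6. DDX17 (chr22:38879443-38903665, minus strand) held 1008, 1015 and 1367 CPM in total RNA, 682, 356 and 498 CPM with eIF4A1, 759, 543 and 868 CPM with eIF4A2 and 479, 302 and 420 CPM with DDX6. In both genes the eIF4A2 libraries lay above the DDX6 libraries without overlap. DDX17 lost its call without eIF4A2 replicate 1 or 3 or DDX6 replicate 2 or 3 (adjusted p = 0.0653 to 0.13), and DDX5 without DDX6 replicate 2 (adjusted p = 0.0529). DDX26B, an older symbol of the Integrator-like gene INTS6L, held 16.9, 14.6 and 22.5 CPM with eIF4A2 and 10.3, 7.79 and 11.4 CPM with DDX6 (0.88 ± 0.21, adjusted p = 0.0134), a call lost without eIF4A2 replicate 3 or DDX6 replicate 2 (adjusted p = 0.0519 and 0.0646). DDX12P held 20, 18.1 and 26.3 CPM against 13.3, 11.6 and 11.6 CPM. DDX55, of the large ribosomal subunit, differed by 0.41 ± 0.13 (adjusted p = 0.0351). DDX55 kept its call, among the fits that left out 1 of these libraries, only without eIF4A2 replicate 3. DDX12P lost its call without DDX6 replicate 2 or 3 or eIF4A2 replicate 3, and DDX11 without any of these or eIF4A2 replicate 1.

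DDX47, of ribosomal RNA processing, showed the widest values at the lowest counts. Its reads numbered 94, 65 and 83 in total RNA, 11, 1 and 6 with eIF4A1, 55, 50 and 173 with eIF4A2 and 12, 2 and 16 with DDX6. The log2 difference was 4.12 ± 0.59 between eIF4A2 and eIF4A1 (adjusted p = 0.00555) and 3.41 ± 0.54 between eIF4A2 and DDX6 (adjusted p = 0.00251). APOLD1 overlaps 36.5% of the annotated exonic bases of DDX47 on the same strand.

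Between eIF4A2 and eIF4A1, DDX47 and DDX39B were higher and 0 members were lower (0.973% and 0.0858% of all genes). At an unadjusted p under 0.05, 11 members were higher and 0 lower, and DESeq2 called 7 higher (3.1% of all genes) and 0 lower. The call of DDX39B was lost without eIF4A1 replicate 2, eIF4A1 replicate 3 or eIF4A2 replicate 3. With the replicate block 10 members were higher and DDX49 was lower (7.12% and 8.7% of all genes), adding DDX11, DDX12P, DDX20, DDX26B, DDX5, DDX55, DDX56 and DHX15. Between DDX6 and eIF4A1, 0 members were called in either direction (0.0801% of all genes higher and 0.0114% lower). An unadjusted p under 0.05 was reached by 6 higher and 0 lower members, and DESeq2 called 2 higher, DDX1 and DHX9 (2.9% of all genes). Under the block, DDX1, DDX50 and DHX9 were higher with DDX6, at 0.40, 0.34 and 0.57, and 0 were lower (6.08% and 3.82% of all genes).

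In control siRNA gradients, the members divided between polysomes and lighter fractions. Of 49, 18 were higher in polysomal than in subpolysomal RNA and 11 lower (30.3% and 34.9% of the 15500 genes tested), with a median log2 ratio of 0.26 against -0.06 over all genes. Without the library labelled control siRNA polysomal replicate 3 the counts were 19 and 12 (31% and 36.8%). The 5 members of cytoplasmic mRNA and translation were all higher in polysomes. Of the ribosome assembly members 6 were higher and 3 lower, of the splicing members 4 and 3, and of transcription and RNP assembly 0 and 2.

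DDX39B lay furthest towards the lighter fractions. It held 1207, 1036, 1043 and 1348 CPM in subpolysomal RNA and 73.9, 52.3, 51.5 and 87 CPM in polysomal RNA, while its input held 187, 207, 210 and 214 CPM. The log2 ratio was -4.20 ± 0.23 (adjusted p = 3.11e-07). DDX12P, with 38.6, 32.2, 66.4 and 54.9 CPM subpolysomal against 10.8, 7.88, 6.4 and 8.89 CPM polysomal, followed at -2.58 ± 0.27 (adjusted p = 1.21e-05), and DDX11 at -1.24. DDX17 held 1763, 1253, 1493 and 1122 CPM subpolysomal and 495, 466, 577 and 583 CPM polysomal (-1.48 ± 0.17). DDX5 held 1230, 1135, 977 and 918 CPM subpolysomal and 613, 692, 687 and 707 CPM polysomal (-0.73 ± 0.14). In each of these genes the fractions did not overlap. DDX55 (-1.37), DDX26B (-0.88), DDX51 (-0.74), DHX35 (-0.51), DHX15 (-0.45) and the low-count DDX47 (-3.13) were also lower in polysomes.

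At the other end, DDX54 held 30, 25, 53.3 and 45.7 CPM in subpolysomal RNA and 175, 145, 173 and 101 CPM in polysomal RNA, a log2 ratio of 1.86 ± 0.26 (adjusted p = 8.97e-05). DHX32, a member of little-known function, held 12.2, 13.9, 10.5 and 9.5 CPM subpolysomal and 24.5, 29.4, 71.4 and 28.9 CPM polysomal. The highest of these was the library labelled replicate 3, and DHX32 had a ratio of 1.65 ± 0.30 with it and 1.23 without it. DDX21 held 595, 601, 411 and 486 CPM subpolysomal and 970, 1104, 1870 and 1084 CPM polysomal (1.19 ± 0.20), with the same library again highest. DDX1 (0.95), DDX3X (0.81), DHX36 (0.69), DHX57 (0.52) and DHX29 (0.50) passed the test in the same direction.

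**Figure D2:**
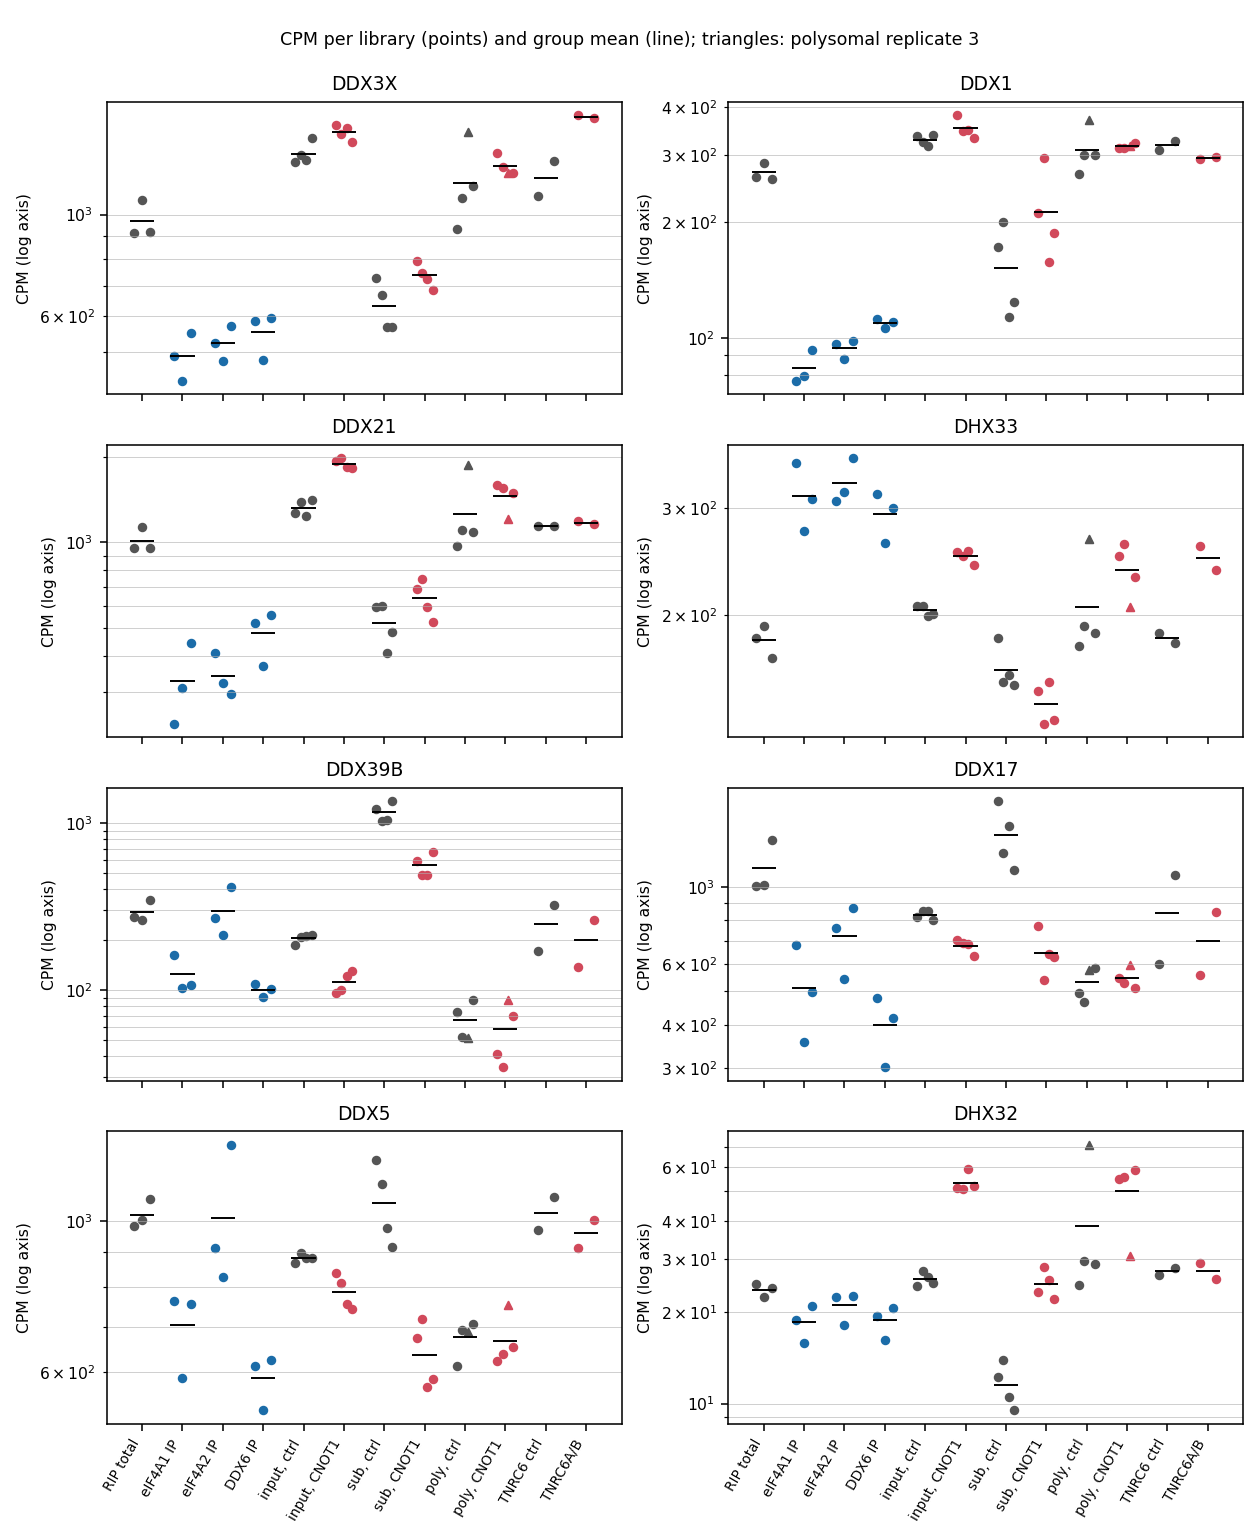
CPM in each library (y axis, log scale) of 8 members by group, with a line at each group mean and triangles for the polysomal libraries of replicate 3. DDX39B and DDX17 lie highest in control subpolysomal RNA and drop there with CNOT1 siRNA, whereas DHX32 lies higher with CNOT1 siRNA in input; the triangles of DHX32 and DDX21 sit apart from their groups.

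The members higher with eIF4A2 than with DDX6 lay among those lower in polysomes, in libraries the 2 comparisons do not share. All 8 were among the 11 lower in polysomes, which is 100% of the former and 72.7% of the latter. Of the 8, DDX39B and DDX47 kept the eIF4A2 call whichever of the compared libraries was left out. Over all genes 963 were in both lists, 61.9% of 1556 and 18.2% of 5277. Across the 49 members, the log2 difference between eIF4A2 and DDX6 and the log2 polysomal ratio had Pearson's r = -0.798 and Spearman's rho = -0.671, with -0.391 and -0.387 over 15341 genes. Without DDX39B, DDX47, DDX19A, DDX19B, DDX58 and the pseudogene DDX12P, r was -0.71 and rho -0.63 (n = 43). Without these and DDX11, DDX5, DDX46 and DHX33, which leaves no near-identical copy and no member with exonic bases overlapped on the same strand, they were -0.679 and -0.604 (n = 39), and without both polysomal libraries of replicate 3 they were -0.802 and -0.683 (n = 49). Genes are not independent replicates, and these values describe the members only. The long nuclear RNAs MALAT1 and NEAT1, chosen after their values were seen, had polysomal ratios of -3.97 and -4.43 and eIF4A2 to DDX6 differences of 0.59 and 0.58 that did not pass (adjusted p = 0.172 and 0.134). Both passed with the replicate block, at 0.58 (adjusted p = 0.0298) and 0.56 (adjusted p = 0.00993), and the part of nuclear RNA in the members' values was not tested.

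**Figure D3:**
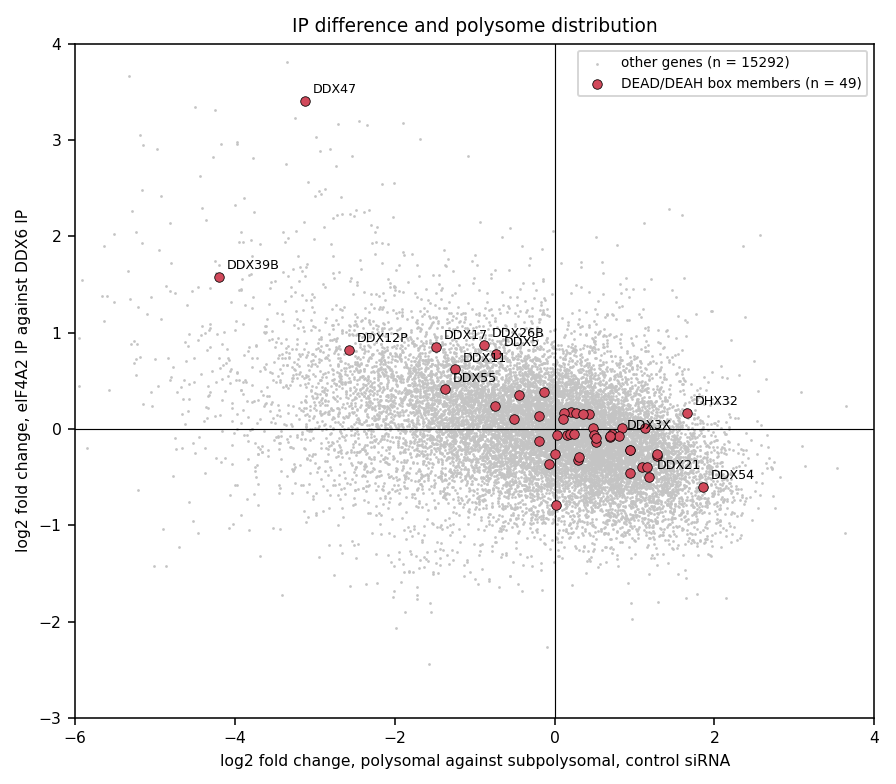
Log2 ratio of polysomal to subpolysomal RNA in control siRNA cells (x axis) and log2 difference between the eIF4A2 and DDX6 immunoprecipitates (y axis). The 49 members are coloured and 15292 other genes are grey. Of the other genes, 10 lie outside the axes. DDX39B and DDX47 stand at the upper left. The translation members lie right of 0 on the x axis and close to 0 on the y axis.

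After CNOT1 knockdown, more helicase mRNAs were higher than lower in the input. Of 49 members 25 were higher and 9 lower (30.9% and 30% of the 15686 genes tested), with a median of 0.16 against -0.00 over all genes. With all 24 gradient libraries in 1 fit the counts were 10 and 4 (13.4% and 15.6% of all genes), the lower members being DDX11, DDX12P, DDX39B and DDX51. Of the 16 ribosome assembly members 12 were higher and 1, DDX51, lower, and in the fit of 24 libraries 5 and 1. The translation members gave 4 higher and 0 lower, but 0 passed in the fit of 24 libraries, where DDX3X, DHX29, DHX36 and DHX57 had an adjusted p of 0.301, 0.311, 0.0546 and 0.299. DHX29 also lost its call without CNOT1 siRNA input replicate 1 (adjusted p = 0.0678). Both mitochondrial members, DDX28 and DHX30, were higher in either fit. Summed over members, 1.02 to 1.06% of unscaled input counts came from helicase mRNAs in the control libraries. The knockdown libraries had 1.17 to 1.22%, a range that does not overlap. On the TMM scale the sums were 10851 to 11519 CPM in control input and 11461 to 12668 CPM in knockdown input, and these overlap. Neither form was tested.

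DHX32 (chr10:127524906-127585005, minus strand) held 24.4, 27.3, 26.1 and 25 CPM in control input and 51.2, 51.1, 59.3 and 52.3 CPM after CNOT1 siRNA. It rose by 1.07 ± 0.07 on the log2 scale (adjusted p = 1.15e-08). DDX28 held 20.4, 20.8, 19.4 and 18 CPM and then 35.8, 36.7, 33.1 and 31.6 CPM (0.82 ± 0.07, adjusted p = 1.13e-07). Neither gene's groups overlapped. DDX21 rose from 1266, 1381, 1238 and 1405 CPM to 1929, 1971, 1835 and 1826 CPM (0.53 ± 0.06). DHX30 held 267, 258, 247 and 209 CPM before and 389, 378, 350 and 339 CPM after (0.58 ± 0.07). DHX36 went from 210, 209, 203 and 209 CPM to 294, 272, 276 and 245 CPM (0.40 ± 0.06), and DHX33 rose by 0.31 ± 0.05. DDX10 and DHX37 rose as much as DHX30 (0.59 each). DDX3X held 1302, 1350, 1314 and 1468 CPM before and 1573, 1502, 1548 and 1439 CPM after (0.17 ± 0.06, adjusted p = 0.016), with overlapping groups, and it lost the call without control siRNA replicate 1 or CNOT1 siRNA replicate 1 or 3 (adjusted p = 0.0642, 0.0541 and 0.0501).

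The members that fell in the input included several that lay lower in polysomes. DDX39B held 187, 207, 210 and 214 CPM and then 95.2, 100, 122 and 129 CPM (-0.86 ± 0.09, adjusted p = 7.91e-07). DDX12P held 14.6, 16.6, 18.4 and 14.2 CPM and then 7.13, 9.26, 9.35 and 7.89 CPM (-0.91 ± 0.11, adjusted p = 3.13e-06). In both genes every knockdown library lay below every control library. DDX51 (-0.57), DDX11 (-0.36), DDX46 (-0.36), DDX17 (-0.28), DDX39A (-0.20), DHX40 (-0.16) and DDX5 (-0.15) fell less. Across the 49 members, the input change and the control polysomal ratio, from different libraries, had r = 0.679 and rho = 0.488, with 0.333 and 0.317 over 15066 genes. They were 0.505 and 0.439 among the 39 members without copies or overlapped exons, and genes are not independent here either.

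**Figure D4:**
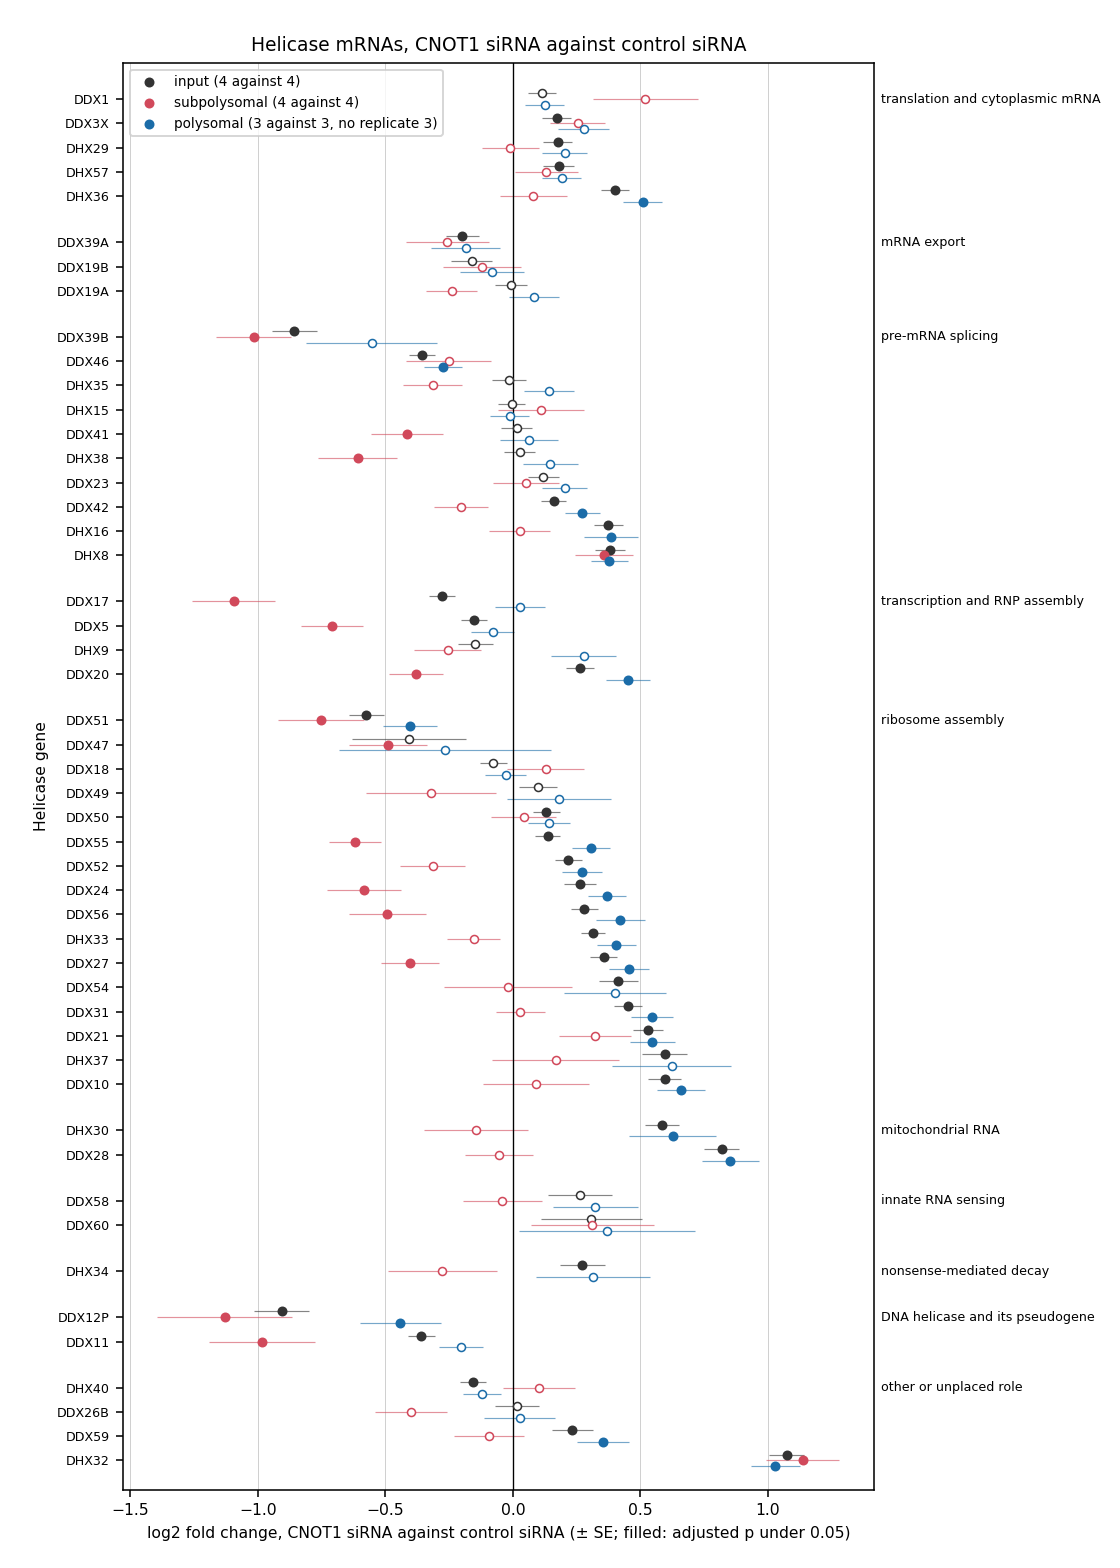
Log2 change with CNOT1 siRNA (x axis) of each member, ordered by role, in input, subpolysomal RNA and polysomal RNA without both libraries of replicate 3. Bars are standard errors and filled points passed an adjusted p of 0.05; the ribosome assembly members lie mainly right of 0 in input and polysomal RNA and mainly left of 0 in subpolysomal RNA.

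In subpolysomal RNA the balance was the other way. With CNOT1 siRNA 14 members were lower and 2, DHX32 and DHX8, higher (15.2% and 12.6% of the 15823 genes tested), with a median of -0.15 against -0.04 over all genes. The lower count was 8 without control siRNA subpolysomal replicate 1 (8.5% of all genes) or replicate 4 (9.95%), and DHX8 kept its call only without the former or without CNOT1 siRNA subpolysomal replicate 4. With the replicate block, which pairs these libraries, 24 were lower and 6 higher (31.2% and 27%), DDX1, DDX21, DDX3X and DHX37 being the additional higher members at 0.51, 0.32, 0.26 and 0.22. DDX17 held 1763, 1253, 1493 and 1122 CPM before and 772, 540, 641 and 627 CPM after (-1.10 ± 0.16, adjusted p = 0.00171). DDX39B held 1207, 1036, 1043 and 1348 CPM before and 593, 491, 486 and 673 CPM after (-1.02 ± 0.15, adjusted p = 0.00153). DDX5 held 1230, 1135, 977 and 918 CPM before and 673, 717, 570 and 586 CPM after (-0.71 ± 0.12). All 3 were lower in every knockdown library than in any control library. DDX12P (-1.13 ± 0.26, adjusted p = 0.0111), DDX11 (-0.98), DDX51 (-0.75) and DDX55 (-0.62) fell as well. DHX32 rose by 1.14 ± 0.14 (adjusted p = 0.000883), from 9.5 to 13.9 CPM before to 22.1 to 28.2 CPM after. MALAT1 fell by 0.85 (adjusted p = 0.00541) in the same libraries and NEAT1 had -0.50 (adjusted p = 0.102). With the replicate block they stood at -0.85 (adjusted p = 5.33e-07) and -0.53 (adjusted p = 9.17e-05), and their part in the members' values was not tested.

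In polysomal RNA as labelled, edgeR called 0 members and 0% of the 14474 genes tested in either direction, with 0 members at an unadjusted p under 0.05 and 0 by DESeq2. Without both polysomal libraries of replicate 3, 18 members were higher and 3 lower (21.8% and 18.9% of all genes). DHX32 held 24.5, 29.4 and 28.9 CPM in the remaining control libraries and 55.1, 55.9 and 58.9 CPM in the remaining knockdown libraries, while the libraries labelled replicate 3 held 71.4 and 30.6 CPM, in the opposite order. The log2 change was 1.03 ± 0.10 without them (adjusted p = 0.000135). DDX28 (0.85), DDX10 (0.66), DHX30 (0.63), DDX21 (0.55), DDX31 (0.55) and DHX36 (0.51) were also higher, and DDX12P (-0.44), DDX51 (-0.40) and DDX46 (-0.27) were lower.

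The change in polysomes minus the change in subpolysomes, tested as an interaction, was positive for DDX17 and DDX55, and 0 members were negative (0.576% and 0.376% of the 16506 genes tested), with 0 negative at an unadjusted p under 0.05 and by DESeq2. DDX17 gave 1.17 ± 0.21 (adjusted p = 0.0187), its polysomal libraries holding 495, 466, 577 and 583 CPM before and 546, 528, 596 and 510 CPM after. DDX55 gave 0.81 ± 0.17 (adjusted p = 0.0326), with 215, 177, 190 and 177 CPM subpolysomal before, 132, 121, 118 and 113 CPM after, and overlapping polysomal groups. DDX5 gave 0.73 ± 0.18 (adjusted p = 0.0506). The interaction of DDX17 passed whichever library was left out, whereas DDX55 kept its call only without CNOT1 siRNA polysomal replicate 3, CNOT1 siRNA subpolysomal replicate 1, control siRNA polysomal replicate 3, or control siRNA subpolysomal replicate 2 or 3. The count of positive members was 7 without the library labelled control siRNA polysomal replicate 3 alone (2.29% of all genes), and 10 with all 24 gradient libraries in 1 fit (3.26%). Without both polysomal libraries of replicate 3, 14 members were positive and 0 negative (5.47% and 3.97% of all genes), 7 of them from ribosome assembly, among them DDX24, DDX56 and DDX27 at 0.99, 0.95 and 0.90. DDX17 then stood at 1.16 and DDX55 at 0.97. None of the 5 translation members passed in either form.

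After TNRC6A and TNRC6B knockdown, 0 members and 0% of the 14064 genes tested were called in either direction by edgeR, with 0 members at an unadjusted p under 0.05 and 0 by DESeq2. The members' log2 values ran from -0.36 to 0.45. DDX3X held 1096 and 1307 CPM with control siRNA and 1648 and 1625 CPM with the knockdown, and DHX33 held 187 and 180 CPM and then 260 and 237 CPM. Both were higher in each knockdown library than in either control library, at 0.45 ± 0.18 and 0.44 ± 0.18 (adjusted p = 1 for each). DDX39B ranged from 170 to 324 CPM with control siRNA and from 137 to 264 CPM with the knockdown, so its groups overlapped. Same-numbered libraries deviated together in this experiment (r = 0.811), and the overlap of groups ignores that pairing.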

How the data were processed

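RNA-seq was made from poly(A) RNA with a stranded kit. Per the labels and the study's methods, the authors aligned reads with TopHat2 to hg19 and counted them per gene symbol with htseq-count, and deposited whole-number counts for each library. The strand option and annotation are not given in the sources used here. A merged table of the authors' own comparisons (log2 fold changes, likelihood ratios, p-values) was not used. Totals ranged from 15.4 to 46 M (mega) counts, which bounds precision for low genes such as DDX47.

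CPM in the selection rule are plain shares of library totals, and all others use TMM-scaled totals within each experiment. Counts were tested with edgeR 4.0.16 (TMM factors, filterByExpr, quasi-likelihood F test, Benjamini-Hochberg adjustment over all genes tested, threshold 0.05) in R 4.3.3: 1 fit over the 12 immunoprecipitation libraries, and separate fits over the compared libraries otherwise. Replicates are samples the labels number separately. The labels do not say that each is a separate culture, so p-values measure the spread between these samples, which may be technical. For total RNA replicate 3 of the immunoprecipitation experiment, the title gives replicate 3 and the description replicate 2. The title was used, and the replicate block depends on it. No 2 libraries were identical. Same-numbered libraries deviated together in the immunoprecipitation experiment (r 0.126 to 0.592) and in the CNOT1 input (0.117 to 0.211) and subpolysomal (0.439 to 0.598) comparisons, over 0.1 in every pair, so those numbers pair the libraries. Same-numbered libraries of the TNRC6A and TNRC6B knockdown experiment did so too (r = 0.811). In comparisons with polysomal libraries this did not hold in every pair. That check included the polysomal libraries of replicate 3, whose CNOT1 levels went against their labels. It therefore cannot show whether polysomal libraries are paired by number. The main fits of all comparisons took no account of pairing.

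Per-library values are given for a chosen panel and, per comparison, for up to 2 increases and 2 decreases that were largest among called members of at least 10 CPM whose groups did not overlap, and paralogues are set side by side. Values of other members shown by library (DDX47, DDX55, DDX39A) were chosen after they were seen. Members, role lists and tests were chosen with earlier results of these data known. The alternatives tried were another tool (DESeq2 1.42.0), RLE size factors, omission of the filter, a replicate block, other sets of libraries and each library left out. Positions are from GENCODE mapped to GRCh37.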

Additional observations from a re-analysis of the deposited data

Results flagged for a closer look

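In the control siRNA input, DHX36 held 203 CPM in replicate 3 and 209 to 210 CPM in the other libraries, a gap that was wide only relative to the narrow range of this group. In the control siRNA polysomal group, DHX36 held 263 CPM in the library labelled replicate 3 and 147 to 159 CPM in the other libraries. Chance singles out about 1 in 20 groups by this gap, and 66 groups of 4 libraries were looked at. The polysomal library is the one whose CNOT1 level went against its label.

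The change with CNOT1 siRNA differed between polysomal and subpolysomal RNA for DDX17, by 1.17 on the log2 scale, and for DDX55, by 0.81, both by the interaction test.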

How the results depend on the processing

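Of 69 called values of named members, 56 kept their call and direction under every alternative run, 13 lost the call under at least 1, and 0 were reversed; the alternatives for single named members were chosen after seeing the data. With the replicate block, members higher with eIF4A2 against total RNA numbered 5 (30.4% of all genes). Those higher and lower with eIF4A2 against eIF4A1 numbered 10 and 1 (7.12% and 8.7%). Those lower with eIF4A2 against DDX6 numbered 7 (22%), and those higher with DDX6 against eIF4A1 3 (6.08%). Those higher and lower in subpolysomal RNA after CNOT1 siRNA numbered 6 and 24 (27% and 31.2%). The block moved no other count of members by over 1.5 times. DESeq2 gave 7 members higher with eIF4A2 than with eIF4A1 (3.1% of all genes) and 2 higher with DDX6 than with eIF4A1 (2.9%). It gave 5 for the interaction, for which the share of all genes is not given. Without the filter on low counts, 2 members were lower with eIF4A2 than with DDX6 and 1 passed the interaction. With only the 6 compared libraries, 1 member was higher with eIF4A2 than with eIF4A1. The shares of all genes without the filter and with only the 6 compared libraries are not given, so those counts cannot be weighed. With all 24 gradient libraries in 1 fit, 10 members were higher and 4 lower in input after CNOT1 siRNA (13.4% and 15.6% of all genes). In that fit 10 were positive for the interaction (3.26%). The cause of these differences was not tested.

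Leaving out libraries, members higher with eIF4A2 than with eIF4A1 ranged from 1 to 3, those higher with eIF4A2 than with DDX6 from 2 to 7, and those changed in subpolysomal RNA from 1 to 2 higher and 8 to 12 lower. Polysomal counts after CNOT1 siRNA ranged from 0 to 18 higher and 0 to 3 lower, the highest being without both libraries of replicate 3, and interaction counts from 1 to 14. Where the share of all genes moved with these counts, it is given with the comparison above for some of the fits only. The low counts of DDX47 limit its values. Same-numbered gradient libraries compared with polysomal ones correlated weakly or negatively (r from -0.499). The lowest value is that between the polysomal libraries of replicate 3, whose CNOT1 levels went against their labels. This check therefore cannot show whether polysomal libraries are paired by number.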
